A study of Homo sapiens with 2 samples.

Results

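The genes described here are 42 regulators that drive or brake the cell division cycle, namely cyclins, cyclin-dependent kinases (CDKs), their inhibitors, phosphatases and modifying kinase, and the E2F and MYB/FOX transcription factors with their pocket protein partners. They were taken by name from the 58735 genes of the deposited count table, and all 42 were present. They were sorted by the stage at which they are known to act into 16 G1 regulators, 13 regulators of the G1/S transition and S phase, 10 mitotic regulators and 3 others. RNA had been sequenced from PLC8024 cells, also named PLC/PRF/5 or Alexander cells, an epithelial line from a human hepatocellular carcinoma (HCC). The MAEL WT group was 1 library of non-treated cells of wildtype genotype, and the MAEL KO group was 1 library of the same line after knockout of MAEL, a cancer/testis gene, with an sgRNA and Cas9. Time and dose are not part of the labels, and both groups are the same line. According to the methods, knockout cells were grown from single sorted cells, so that the knockout, the clone and the culture cannot be told apart.

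Progress through the cell cycle is driven by CDKs, which act only when bound to a cyclin. D-type cyclins with CDK4 or CDK6 phosphorylate the pocket proteins RB1, RBL1 and RBL2 in G1, which releases E2F factors to switch on the genes of S phase, among them cyclin E, cyclin A and several E2Fs. Later, MYBL2 and FOXM1 switch on mitotic genes such as the B-type cyclins and CDK1, while INK4 and CIP/KIP proteins hold CDKs inactive.

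Promoter sequences are shown first, since many S phase and mitotic genes are known to be read through 2 kinds of short promoter element. The E2F element was searched in the form TTCCCGC, in the form TTGGCGC, in the form TTCGCGC and in the form TTGCCGC. The cell cycle homology region (CHR) was searched in the form TTTGAA and in the form TTCGAA, and both strands were read for each. The following windows hold the 250 bases before a RefSeq start on GRCh38.p14, 5′ to 3′ on the strand of the gene, with E2F elements in capitals. RBL1 (chr20:37095998-37096247, minus strand) and CDKN2C (chr1:50968456-50968705, plus strand, the middle of 3 annotated starts) are the G1 regulators with a log2 fold change above 1 in MAEL KO over MAEL WT, and E2F1 (chr20:33686386-33686635, minus strand) and E2F7 (chr12:77065570-77065819, minus strand) are an activating and a repressing E2F gene.
RBL1: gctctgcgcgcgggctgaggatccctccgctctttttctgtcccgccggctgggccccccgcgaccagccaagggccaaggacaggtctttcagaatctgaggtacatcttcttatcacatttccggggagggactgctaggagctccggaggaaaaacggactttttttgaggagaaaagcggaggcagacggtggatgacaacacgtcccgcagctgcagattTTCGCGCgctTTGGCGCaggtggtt
CDKN2C: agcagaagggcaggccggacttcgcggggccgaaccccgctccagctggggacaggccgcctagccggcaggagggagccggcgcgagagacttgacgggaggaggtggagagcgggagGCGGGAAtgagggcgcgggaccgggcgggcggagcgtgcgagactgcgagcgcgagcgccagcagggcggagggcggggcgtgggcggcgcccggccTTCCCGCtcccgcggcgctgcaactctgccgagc
E2F1: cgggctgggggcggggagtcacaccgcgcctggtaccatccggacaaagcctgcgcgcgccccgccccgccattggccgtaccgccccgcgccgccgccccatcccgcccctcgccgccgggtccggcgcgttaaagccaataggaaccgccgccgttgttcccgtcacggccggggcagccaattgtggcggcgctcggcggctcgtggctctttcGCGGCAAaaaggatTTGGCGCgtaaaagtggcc
E2F7: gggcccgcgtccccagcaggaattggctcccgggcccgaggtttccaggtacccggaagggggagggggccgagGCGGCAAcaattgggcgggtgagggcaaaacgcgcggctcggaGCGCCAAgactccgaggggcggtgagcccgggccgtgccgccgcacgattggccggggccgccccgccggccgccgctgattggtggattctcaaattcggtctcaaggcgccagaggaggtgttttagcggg

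The next windows belong to the mitotic genes CCNB2 (chr15:59104896-59105145, plus strand) and CDK1 (chr10:60778228-60778477, plus strand, the downstream of its starts). Capitals mark the CHR and the CCAAT box, which is often found beside it and was searched as CCAAT on either strand.
CCNB2: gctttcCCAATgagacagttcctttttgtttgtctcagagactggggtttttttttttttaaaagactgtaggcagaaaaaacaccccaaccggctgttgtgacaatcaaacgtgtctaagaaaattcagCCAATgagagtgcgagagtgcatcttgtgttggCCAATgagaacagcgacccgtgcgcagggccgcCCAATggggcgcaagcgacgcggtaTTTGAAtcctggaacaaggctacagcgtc
CDK1: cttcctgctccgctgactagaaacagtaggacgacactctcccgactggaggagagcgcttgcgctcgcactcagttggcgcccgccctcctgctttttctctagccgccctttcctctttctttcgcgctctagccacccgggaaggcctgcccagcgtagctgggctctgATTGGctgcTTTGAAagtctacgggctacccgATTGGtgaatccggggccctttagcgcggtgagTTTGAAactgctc

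CDKN2B (chr9:22009306-22009555, minus strand) is shown as the well-counted member that was lowest in MAEL KO relative to MAEL WT. Its window held none of these elements and has no capitals.
CDKN2B: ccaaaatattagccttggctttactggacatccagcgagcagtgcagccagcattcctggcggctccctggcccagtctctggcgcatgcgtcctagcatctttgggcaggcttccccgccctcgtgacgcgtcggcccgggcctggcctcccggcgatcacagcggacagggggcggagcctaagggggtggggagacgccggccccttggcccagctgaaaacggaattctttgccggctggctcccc

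The libraries held 19904136 counts for MAEL WT and 20833332 counts for MAEL KO. MAEL itself had 1 count in MAEL WT and 0 counts in MAEL KO, so that the labels could not be checked by the targeted gene. Secreted liver proteins were abundant in both libraries, with 80091 and 135805 counts for APOB. Among 16 hepatocyte and liver tumour markers, however, ALB and AFP had 59 and 26 counts in MAEL WT against 8550 and 1351 in MAEL KO. That marker list moved with the cell cycle genes, its summed level going from 19145 to 33257 CPM (counts scaled to a common library total), with 15 of 16 genes higher in MAEL KO, and its part in the result was not tested. Markers of other cell types were low, with summed levels of 13.8 and 8.50 CPM for 7 fibroblast genes, 65.3 and 36.0 CPM for 7 leukocyte genes and 17.8 and 19.6 CPM for 5 endothelial genes. LYZ, with 1251 and 737 counts, made up most of the leukocyte sum, while PTPRC had 3 and 0 counts, CD3E 0 in both libraries, VWF 1 and 0, and COL1A2 1 in each.

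Of the tested regulators, 12 of 13 of S phase and 10 of 10 of mitosis were higher in MAEL KO, the exception being E2F6 at -0.02 (-0.16 to 0.11) on the log2 scale. Of the G1 regulators, 9 of 15 were higher. Of the 42 members, 41 reached 10 counts in a library, and 34 of these (82.9%, against a background of 48.0% of all genes) had a positive log2 fold change of MAEL KO over MAEL WT, while 7 had a negative one. The median was 1.19, against -0.04 over all 17887 genes tested. A log2 fold change above 2, the fold part of the study's rule, was reached by 6 members, or 14.6%, where the background over all genes tested was 2.16%. With total counts 2 members, CCNA2 and E2F8, passed it. The study also set a cutoff on an adjusted p-value, which was not applied here, so that these counts are not its calls. A value below -2 was found for 2 members, or 4.88%, against a background of 5.64%, so that the share of strongly lower members was near that of all genes. Above 1 there were 22 members, or 53.7%, against 10.2% of all genes, and below -1 the same 2 members as below -2, against 16.5%. Among the 12023 genes that reached 100 counts in a library, as 40 of the members did, the background was 1.54% above 2, 2.35% below -2 and 9.23% above 1. Values on the log2 scale given after counts are fold changes of MAEL KO over MAEL WT, with the 95% interval in brackets. As 1 library stood for each group, no p-value is given, and the 95% intervals of single genes are exact Clopper-Pearson intervals that cover counting error only. Those of a ratio between members are conditional exact intervals of the odds ratio, which also cover counting error only. In bulk RNA, more cells in a given phase and more RNA per cell cannot be told apart.

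The medians differed between the phases. The 15 tested G1 regulators had a median of 0.22 on the log2 scale (-0.18 to 0.49). The 13 S phase regulators had 1.49 (1.15 to 2.26) and the 10 mitotic regulators 1.93 (0.95 to 2.21). The brackets hold binomial limits of the median over genes, and genes are not replicates, so that these limits cannot compare the phases. The S phase and mitotic medians lay 1.27 and 1.71 above that of G1, and the mitotic median lay 0.45 above that of S phase. These differences were not tested. A value above 1 was found in 2 of 15 G1, 11 of 13 S phase and 8 of 10 mitotic regulators. Scaling by total counts lowered the median of all genes from -0.04 to -0.31 and the medians of the 3 phases to -0.06, 1.21 and 1.66, so that the G1 median changed sign while the order of the phases was kept.

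**Figure D1:**
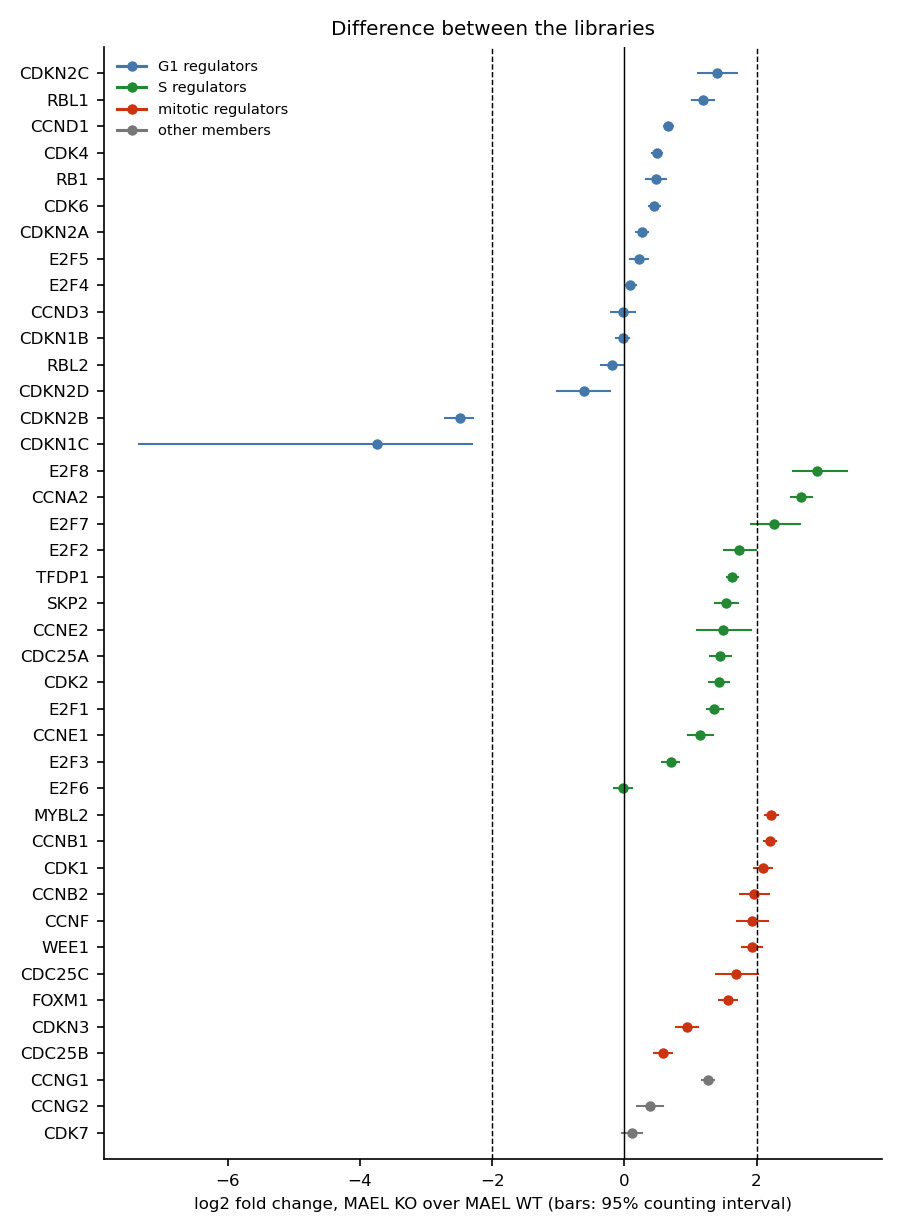
Log2 fold change of MAEL KO over MAEL WT (x axis) for the 41 tested regulators, in blocks by phase (colour) and sorted within each block. Points are values from 1 library per group, bars are 95% counting intervals and dashed lines mark -2 and 2. Most G1 points lie near 0, S phase and mitotic points lie mainly between 1 and 3, and CDKN2B and CDKN1C lie below -2.

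**Figure D2:**
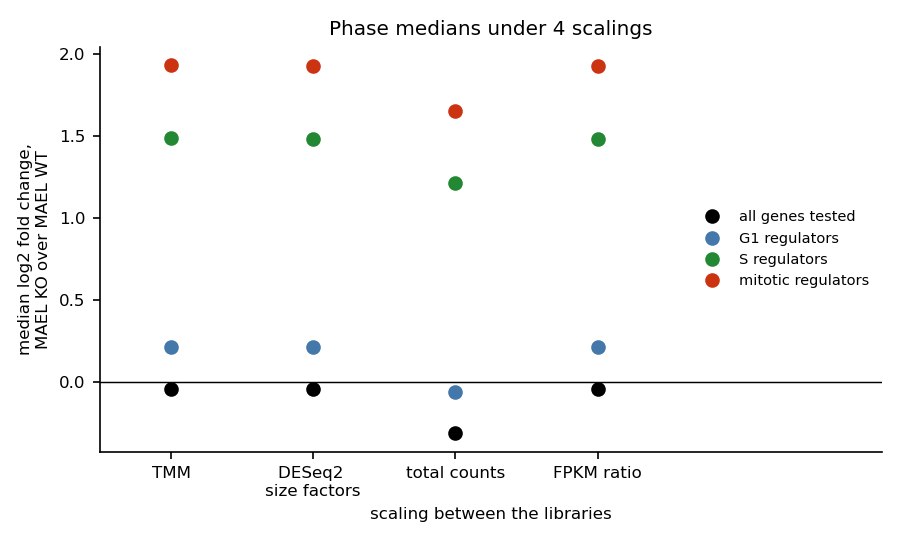
Median log2 fold change (y axis) of all genes tested and of the G1, S and mitotic regulators under 4 scalings of the libraries (x axis), each point a median over genes. The mitotic median is highest and the median of all genes lowest under each scaling, and all medians are lower with total counts. Medians under TMM, DESeq2 size factors and the FPKM ratio nearly coincide.

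The D-type cyclins couple growth signals to the cycle. CCND1, the main one in these cells, had 3035 counts in MAEL WT and 4155 in MAEL KO, or 0.66 on the log2 scale (0.60 to 0.73). CCND3 had 536 and 458 counts, or -0.02 (-0.20 to 0.17), an interval that includes no difference, and -0.29 with total counts. CCND2 had 3 and 0 counts and was not detectable at this depth. Per length, CCND1 made up 87.1% of the summed FPKM (counts scaled by gene length and library size) of D-type cyclins in MAEL WT and 91.6% in MAEL KO. Their kinase partners were slightly higher in MAEL KO. CDK4 went from 2317 to 2821 counts, or 0.49 on the log2 scale, and CDK6 from 1975 to 2338, or 0.45 on the log2 scale. CCND1 overlaps LTO1 on the opposite strand, and CDK4 overlaps TSPAN31 and MARCH9, which were at -0.84, -0.40 and -0.07.

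The CDK inhibitors did not move together. CDKN2B, an INK4 inhibitor of CDK4 and CDK6 that is known as a target of TGF-beta, fell from 1402 counts in MAEL WT to 215 in MAEL KO, or -2.49 on the log2 scale (-2.71 to -2.29). Its neighbour CDKN2A, which lies next to it on chromosome 9 (GRCh38, start 21967753, against 22002903 for CDKN2B), had 1946 and 2014 counts, or 0.26 (0.17 to 0.35), and -0.02 with total counts. Within the libraries, the count of CDKN2B was 0.720 times that of CDKN2A in MAEL WT and 0.107 times in MAEL KO, a 6.75-fold difference (5.76 to 7.93) that does not depend on the scaling. CDKN2B-AS1, an antisense gene that overlaps both, had 412 and 79 counts, or -2.16 on the log2 scale. Whether reads were counted by strand is not given in the sources used here, and without strand the reads of these genes cannot be told apart where they overlap.

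CDKN2C, another INK4 inhibitor, went the other way, from 143 to 328 counts, or 1.40 on the log2 scale (1.12 to 1.70). CDKN2D had 147 and 83 counts, or -0.61 (-1.02 to -0.22). Of the CIP/KIP inhibitors, CDKN1B, which binds cyclin E-CDK2, was level with 1865 and 1586 counts, or -0.02 (-0.12 to 0.07). With total counts it was at -0.30. CDKN1C, an imprinted inhibitor, had 44 counts in MAEL WT and 2 in MAEL KO. It was tested through its 44 counts in MAEL WT alone. With the MAEL KO count set to the floor of 3, its level in MAEL KO was 12.7-fold lower. The nearer counting limit, at -2.31 on the log2 scale, allows a smaller difference than that. Summed over these 6 inhibitors, the FPKM was 73.9 in MAEL WT and 65.3 in MAEL KO, with CDKN2B accounting for 21.4% and 4.28%. CDKN1A, another CIP/KIP inhibitor, is not among the members, so that this sum does not cover the whole family. SKP2, the ligase subunit that marks CDKN1B protein for destruction, was higher in MAEL KO, with 391 and 987 counts, or 1.54 on the log2 scale (1.38 to 1.72).

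Among the pocket proteins, which repress E2F target genes, RBL1 alone was more than 2-fold higher in MAEL KO, and less than that with total counts, at 0.91 on the log2 scale. It had 430 counts in MAEL WT and 847 in MAEL KO, or 1.19 on the log2 scale (1.02 to 1.36). RB1 had 662 and 794 counts, or 0.47. RBL2, the pocket protein of resting cells, had 667 and 509, or -0.18 (-0.35 to -0.01), and -0.46 with total counts. AKTIP, which overlaps RBL2 on the opposite strand, had 766 and 381 counts. RBL1 thus went from 27.2% to 42.5% of the summed FPKM of pocket proteins, and from the lowest of them in MAEL WT to the highest in MAEL KO. In count ratios within each library, RBL1 gained 2.58-fold on RBL2 (2.18 to 3.05) and 1.64-fold on RB1 (1.40 to 1.92).

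The E2F family split along its functional classes. The activators E2F1, E2F2 and E2F3 had 792, 194 and 898 counts in MAEL WT and 1763, 561 and 1262 in MAEL KO, with log2 fold changes of 1.36, 1.74 and 0.70. The repressors E2F4, E2F5 and E2F6 were nearly level. They had 2370, 903 and 984 counts in MAEL WT and 2178, 908 and 838 in MAEL KO, with log2 fold changes of 0.09, 0.22 and -0.02, or -0.19, -0.06 and -0.30 with total counts. The atypical E2Fs, which bind DNA without a partner and repress S phase genes later in the cycle, had the largest differences of the family. E2F7 rose from 75 to 314 counts, or 2.26 on the log2 scale (1.91 to 2.66), and E2F8 from 59 to 392, or 2.92 (2.54 to 3.36), the highest value of all members. TFDP1, the DNA-binding partner of the classical E2Fs, had 1723 and 4620 counts, or 1.63 (1.55 to 1.71).

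Per length, the make-up of the family changed accordingly. In MAEL WT, E2F4 was the highest E2F at 30.2 FPKM, ahead of E2F1 at 14.5. In MAEL KO, E2F1 was highest at 37.2 FPKM and E2F4 stood at 32.1. The activators were 32.7% of the family's summed FPKM in MAEL WT and 48.6% in MAEL KO, E2F4 to E2F6 65.7% and 44.7%, and the atypical E2Fs 1.63% and 6.68%. The count of E2F1 relative to E2F4 within a library was 2.42-fold higher in MAEL KO (95% interval 2.18 to 2.69). E2F8 gained a further 2.98-fold on E2F1 (2.23 to 4.04).

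**Figure D3:**
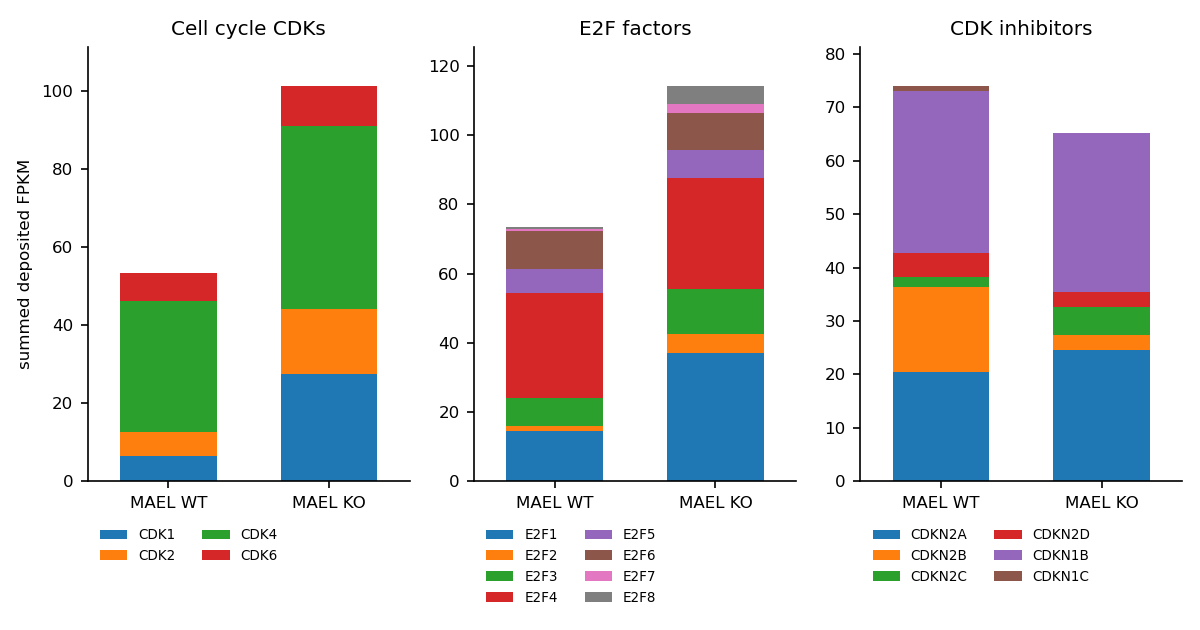
Stacked deposited FPKM (y axis, starting at 0) of CDKs, E2F factors and CDK inhibitors in the MAEL WT and MAEL KO libraries, 1 library each and therefore without error bars. The CDKs are CDK1, CDK2, CDK4 and CDK6, and the inhibitors are the INK4 and CIP/KIP genes among the members, without CDKN1A. The summed CDK and E2F levels are higher in MAEL KO, at 101 and 114 FPKM against 53.4 and 73.5, with larger shares of CDK1 and E2F1, while the CDKN2B part of the inhibitors shrinks from 15.8 to 2.79 FPKM.

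The E-type cyclins start S phase together with CDK2. CCNE1 had 376 counts in MAEL WT and 722 in MAEL KO, or 1.15 on the log2 scale (0.97 to 1.34). CCNE2 had 72 and 176 counts, or 1.49 (1.10 to 1.92), and CDK2 527 and 1229, or 1.43 (1.28 to 1.58). CCNA2, which replaces cyclin E on CDK2 in S phase and then partners CDK1, differed most of the cyclins, with 408 and 2257 counts, or 2.67 on the log2 scale (2.53 to 2.83). Relative to CCNE1 in the same library it gained 2.88-fold (2.44 to 3.40). EXOSC9, which overlaps CCNA2 on the opposite strand, had 522 and 927 counts, or 1.04 on the log2 scale. CDC25A, the phosphatase that removes the inhibitory phosphate from CDK2, went from 441 to 1043 counts, or 1.45 (1.29 to 1.62).

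All 10 mitotic regulators were higher in MAEL KO, under each of the 4 scalings, of which only total counts differed clearly from the others. CCNB1, the cyclin of the mitotic kinase, rose from 1195 to 4776 counts, or 2.21 (2.12 to 2.30). Its partner CDK1 rose from 554 to 2046 counts, or 2.09 (1.96 to 2.23). By FPKM, CCNB1 went from rank 5 among the 42 members in MAEL WT to rank 1 in MAEL KO, at 21.4 and 98.5. CCNB2 had 217 and 733 counts, or 1.96 (1.75 to 2.19), and CCNF, a cyclin that serves as a ubiquitin ligase subunit, 197 and 654, or 1.94 (1.71 to 2.18). These cyclins lay just below the threshold of 2, and WEE1 at 1.93 and CDC25C at 1.69 also had intervals that reached it. WEE1 is the kinase that holds CDK1 inactive, and CDC25C is the phosphatase that releases it, and both were higher in MAEL KO, with 501 and 1649 counts for WEE1 and 114 and 319 for CDC25C. CDC25B, which acts earlier in mitotic entry, differed least, with 859 and 1113 counts or 0.58 (0.45 to 0.71), and CDC25C gained 2.16-fold on it (1.71 to 2.75).

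The transcription factors of the mitotic programme followed the same direction. MYBL2 rose from 941 to 3800 counts, or 2.22 on the log2 scale (2.12 to 2.33), and was the second highest member by FPKM in MAEL KO, at 72.2 against 15.5 in MAEL WT. FOXM1 had 632 and 1616 counts, or 1.56 (1.43 to 1.70). CDKN3, a phosphatase that acts on CDKs, had 498 and 830 counts, or 0.95 (0.79 to 1.11). Across the kinases, CDK4 was the highest by FPKM in both libraries, but its share of the summed FPKM of CDK1, CDK2, CDK4 and CDK6 was 62.6% in MAEL WT and 46.4% in MAEL KO, while that of CDK1 was 12.1% and 27.1%. Relative to CDK4 in the same library, CDK1 gained 3.03-fold (2.72 to 3.39) and CDK2 1.92-fold (1.70 to 2.16).

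Of the members outside these phases, CCNG1, a cyclin known as a stress-response gene, had 1357 counts in MAEL WT and 2822 in MAEL KO, or 1.27 on the log2 scale (1.17 to 1.36). CCNG2, which is known to be high in resting cells, had 394 and 447 counts, or 0.39 (0.19 to 0.59). CDK7, the kinase that activates other CDKs, had 758 and 712 counts, or 0.12 (-0.03 to 0.27), an interval that includes no difference, and -0.16 with total counts.

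**Figure D4:**
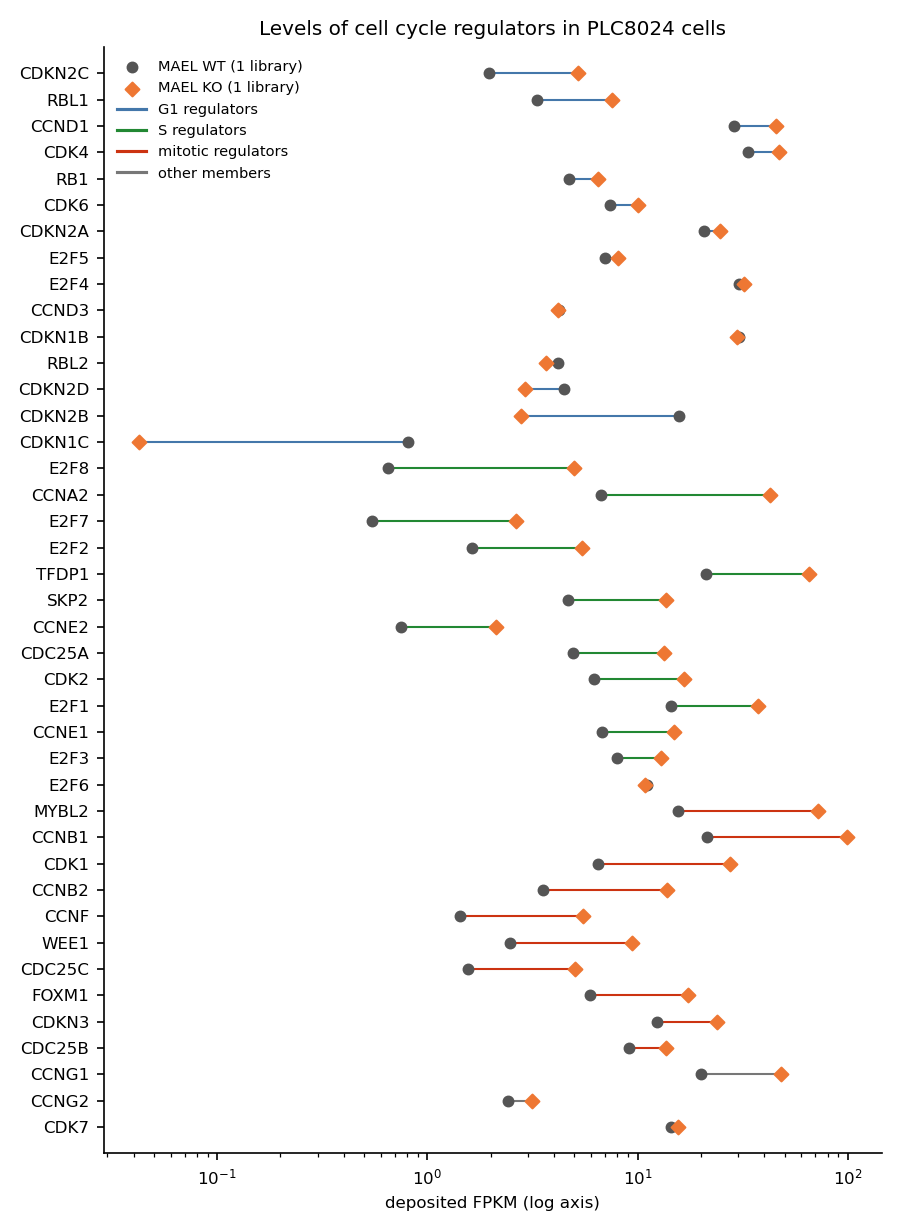
Deposited FPKM (x axis, log scale) of 41 regulators in MAEL WT (circles) and MAEL KO (diamonds), 1 library each, joined by lines coloured by phase. CCND2, at 0.0192 and 0 FPKM, is left out. The longest lines to the right belong to E2F8, CCNA2 and E2F7, and CDKN2B and CDKN1C are the longest to the left.

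The promoter elements shown above were then counted in every window of 300 bases, from 250 bases before to 50 bases after a RefSeq start. Windows were matched for 33 members, the others being CCND1, CCND2, CDKN1C, E2F5, CCNE2, CDK2, E2F8, WEE1 and FOXM1. An E2F element was present in 7 of 10 S phase regulators, 4 of 8 mitotic regulators and 2 of 12 G1 regulators, against 15.3% of 27305 genes. A CHR was present in 6 of 8 mitotic regulators, 1 of 10 S phase regulators and 1 of 12 G1 regulators, against 19.5% of all genes, and a CCAAT box in 7 of 8 mitotic regulators, against 39.7%. The G1 regulators with an E2F element were RBL1 and CDKN2C, the same 2 that had a log2 fold change above 1. The 13 members with an E2F element had a median of 1.45 on the log2 scale, with 10 above 1, and the 20 without had a median of 0.46, with 7 above 1. Most members with the element are S phase or mitotic regulators, and element and phase were not separated. In S phase, CCNE1, SKP2 and CCNA2, without it, were at 1.15, 1.54 and 2.67. Those with it ran from -0.02 for E2F6 to 2.26 for E2F7. In mitosis, those without it ran from 0.95 for CDKN3 to 2.22 for MYBL2. Those with it ran from 0.58 for CDC25B to 2.21 for CCNB1. The split by the CHR was smaller than that by the E2F element. The 8 members with a CHR had a median of 1.32, with 4 above 1, and the 25 without had 1.15, with 13 above 1. The split by the CCAAT box was close to that by the E2F element. The 18 members with the box had a median of 1.38, with 11 above 1, and the 15 without had 0.47, with 6 above 1. Exceptions lay on both sides. E2F6 has an E2F element and was level, at -0.02, and CCNA2 and MYBL2, at 2.67 and 2.22, held neither an E2F element nor a CHR in the window. In the windows of the members, no match of one element overlapped a match of another. Genes with several starts had more windows in which to hold a match, and per window the shares over all genes were 13% for E2F and 16.4% for CHR. These matches describe letters in a window and not binding.

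**Figure D5:**
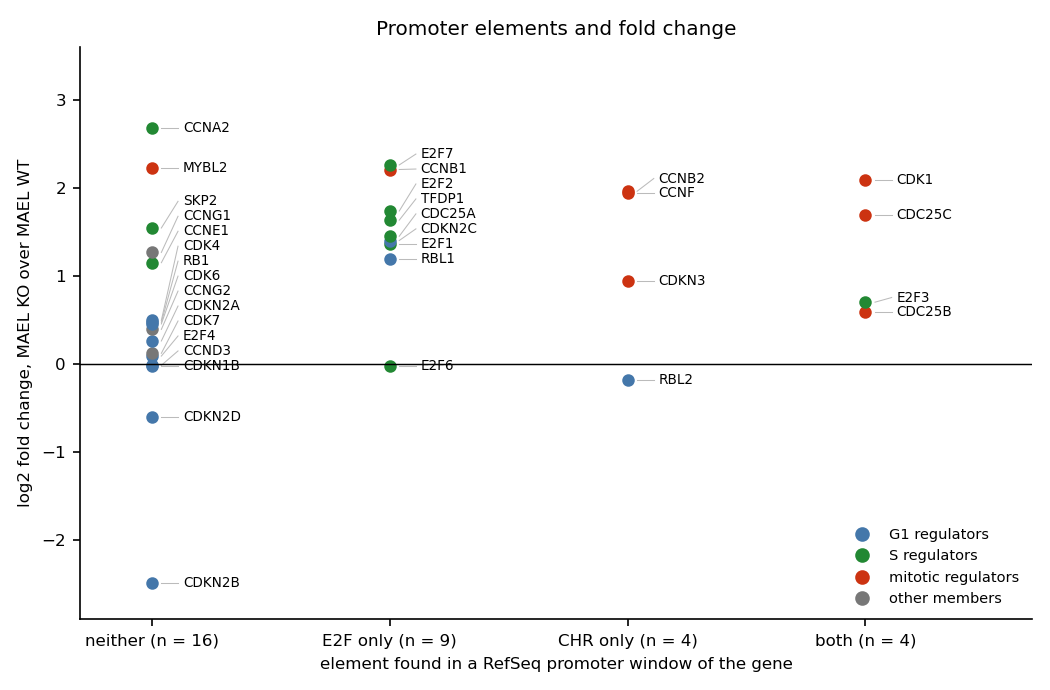
Log2 fold change of MAEL KO over MAEL WT (y axis) for the 33 members with a promoter window, by the elements found (x axis), with colour for the phase and 1 point per gene. Of the 9 genes with an E2F element only, 8 lie above 1 and E2F6 lies at -0.02, while the 16 genes with neither element spread from CDKN2B at -2.49 to CCNA2 at 2.67.

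Further genes of the pathway were examined as lists, beside the background of 48.0% of all genes tested above 0, 2.16% above 2 and 5.64% below -2, and a median of -0.04. All 20 S phase genes known as E2F targets were higher in MAEL KO, 15 of them above a log2 fold change of 2, with a median of 2.25. The range of those with at least 100 counts ran from CDC6, a replication licensing factor with 1180 and 2877 counts, to RRM2, a subunit of ribonucleotide reductase, with 235 and 2159 counts, or 3.40 on the log2 scale. Of 12 checkpoint and mitotic entry kinases, 4 were above 2 and the median was 1.95. BUB1 went from 565 to 2375 counts and PLK1 from 364 to 1451, whereas CHEK2 had 539 and 801. Of 23 subunits, adaptors, enzymes, regulators and targets of the APC/C and SCF ubiquitin ligases, 2 were above 2 and the median was 0.53. CDC20, the mitotic activator of the APC/C, and PTTG1, which it targets, were the highest, at 2.10 and 2.08, and BTRC was lowest at -0.54. Of 7 genes of the MuvB core and its partners, which join with pocket proteins or MYBL2, none passed 2 in either direction. Among those with at least 100 counts, LIN9 was highest, with 173 and 345 counts, or 1.20 on the log2 scale. LIN52 was lowest of these, with 665 and 482, or -0.25, and 1 gene with fewer counts was below -1.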

How the data were processed

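The authors sequenced RNA of PLC8024 cells, as 1 MAEL WT and 1 MAEL KO library. The authors deposited read counts per gene without normalization, and FPKM values. Per the labels, the processing notes list HISAT2 2.0.5, featureCounts 1.5.0-p3 and hg19, whereas 58690 of the 58735 genes, and all 42 members, carry the GRCh38 coordinates of GENCODE 29. The deposited FPKM equal the counts divided by gene length and a library size that is 1.099 (MAEL WT) and 0.910 (MAEL KO) times the total counts.

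TMM factors (1.10044 for MAEL WT, 0.908725 for MAEL KO) were taken over all rows with edgeR 4.0.16, and median-ratio size factors with DESeq2 1.42.0 (R 4.3.3). Other steps used Python 3.11.15, NumPy 2.4.6, SciPy 1.17.1, pandas 2.3.3 and matplotlib 3.10.9. Fold changes divide MAEL KO by MAEL WT, after 1 was added to both normalized values, and a gene entered when either library held 10 counts. Intervals are 95% Clopper-Pearson intervals of the MAEL KO share of the counts. A gene at or under 3 counts in 1 library, or 0.151 and 0.144 CPM, is given as a ratio against 3 counts, beside its nearer counting limit. The intervals reflect counting error alone, because each group has 1 library. The reads carry no molecular identifiers and duplicates are not separate molecules, so that the intervals may be too narrow even for counting error. Ratios of 2 members carry conditional exact intervals of the odds ratio. The threshold of 2 is the fold part of the study's rule, taken without its cutoff on an adjusted p-value. No test was run, since each group has 1 library. As alternatives, scaling was by DESeq2 size factors, by total counts or by the FPKM ratio with 0.01 added, and added counts of 0.1 and 5, other count filters and a threshold of 1 were tried. The steps were tested on simulated data. Promoter windows came from RefSeq, and none is shown from chromosome 8. All members are named, and of each list at most the 2 highest and 2 lowest genes with at least 100 counts, beside marker genes and MAEL. Genes that overlap members, ratio pairs and the promoter windows shown were chosen after values were seen. The members, phases and lists were chosen with earlier results of these data known.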

Additional observations from a re-analysis of the deposited data

How the results depend on the processing

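With 1 library per group, no library could be left out, and no difference has a replicate check. No paired analysis was possible because each group holds a single library. The 6 members above a log2 fold change of 2 were 2 with total counts, CCNA2 and E2F8, and 22 at a threshold of 1. The 2 members below -2 were 1 among those with at least 100 counts, which leaves out CDKN1C by construction. Of the 6, E2F7 and CDK1 had counting intervals that include 2. The remaining alternatives left these counts within 1.5 times, and the median of the members lay between 0.91 with total counts and 1.23 for members with at least 100 counts. Across the alternatives 286 values of single members were recomputed, and the 34 that left their counting interval did so with total counts. The signs of CDKN2A, E2F4, E2F5 and CDK7 turned negative with total counts, and those of the other 37 tested members were kept under all 4 scalings. TMM, DESeq2 size factors and the FPKM ratio scale these libraries almost alike, so that only total counts gave a separate check. Depth limits CDKN1C, CCND2 and MAEL, each at or under 3 counts in at least 1 library.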

Other observations

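Cyclins and CDK-related kinases without a core role in the division cycle lay on both sides of 0. Of 22 such genes in the table, 18 had at least 10 counts in 1 library, with a median log2 fold change of -0.19. None passed 2 in either direction, against 2.16% of all genes tested above 2 and 5.64% below -2, so that few would be counted in a list of this size. CCNJL, a cyclin J-like gene, had 5059 counts in MAEL WT and 1494 in MAEL KO, or -1.55 on the log2 scale (-1.63 to -1.47), and CDK20 had 592 and 222, or -1.20. CDK14 and CCNB3, a B-type cyclin of meiosis, were the highest, with 164 and 460 counts for CDK14 and 177 and 438 for CCNB3, at 1.69 and 1.51.

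The 15 cyclins and kinases that act on RNA polymerase II or the Mediator had a median log2 fold change of -0.00058. None was above 1 or below -1, against 10.2% and 16.5% of all genes tested. The highest were CCNL1 at 0.96 and CDK12 at 0.64, and the lowest with at least 100 counts were CCNL2 at -0.45 and CDK19 at -0.31. CCNL1 had 1599 counts in MAEL WT and 2690 in MAEL KO, and its paralog CCNL2 had 6077 and 3838.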
